A study of Mus musculus with 2 samples.

Results

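Cdkn1a, Ccng1, Mdm2, Btg2, Plk2, Zmat3, Sesn1, Sesn2, Trp53inp1 and Psrc1 are known targets of p53, the transcription factor that responds to DNA damage, and act in cell cycle arrest and in the feedback on p53. The 10 genes were taken by name from the 32285 genes of the deposited count tables, and each matched 1 row. Their transcripts were followed in the retinal pigment epithelium (RPE), the pigmented cell layer that supports the photoreceptors, and in the cells collected with it. C57BL/6J male mice of 3 months were injected under the retina with PBS (control) or with doxorubicin (Dox) at 100 ng/µl, in a volume of 1 µl. Dox damages DNA by trapping topoisomerase on it. The paper states that Dox given by this route affects only a part of the RPE. The cells of the Dox group can therefore include RPE cells that the drug did not reach, and the labels do not mark them. After 7 days, cells of the RPE, choroid and sclera of 10 eyes from 5 mice were pooled per group and sequenced by single-cell RNA-seq, 1 library per group. With no replicate of either group, the effect of Dox cannot be told apart from a difference between the 2 injected pools or the 2 libraries, and no test was made. Every interval below is a 95% interval of counting error only, exact Poisson for a level, exact conditional binomial for a ratio and Clopper-Pearson for a share.

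In unstressed cells, p53 is kept low by the ubiquitin ligase Mdm2. DNA damage kinases release it from Mdm2, and p53 then binds response elements near its target genes. Cdkn1a (p21) stops the cell cycle by inhibiting cyclin-dependent kinases, and its rise is a common mark of senescence. Mdm2 is itself a target, which closes a negative feedback loop, and Ccng1 (cyclin G1) also acts on Mdm2. Btg2 is an antiproliferative cofactor, Plk2 a polo-like kinase, Zmat3 an RNA-binding protein, and Psrc1 a microtubule-binding protein. Sesn1 and Sesn2 are sestrins, which restrain mTORC1 signaling, and Trp53inp1 is a stress protein that promotes p53 activity. In the adult eye the RPE does not divide.

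The p53 response element consists of 2 half-sites of 10 bases, and it was searched, on both strands and with no spacer, in windows from 250 bases before to 50 bases after the transcription starts given by RefSeq (GRCm38.p6). A site was counted only where the C and the G in the core of both half-sites matched, so mismatches lie at other bases. The members had 11 windows, which covered 8 of the 10 genes. The best site of Cdkn1a and that of Ccng1 had 1 mismatch each. Across all 32851 windows of the genome, 22 (0.067%) held a site with at most 1 mismatch. The other member windows had at least 3 mismatches. Both sites are shown with the site in capitals and 20 bases on each side, since these are the members with the closest matches. They are also 2 of the 3 members with the highest ratios of Serpina3n-high to Serpina3n-low Dox-RPE below. The other of the 3, Psrc1, had the highest of these ratios and 10 mismatches in both of its windows.
Cdkn1a, chr17:29090908-29090967, plus strand: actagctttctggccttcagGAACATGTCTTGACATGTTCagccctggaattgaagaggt
Ccng1, chr11:40755442-40755501, minus strand: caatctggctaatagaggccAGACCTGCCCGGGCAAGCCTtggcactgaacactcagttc
The Cdkn1a site starts 51 bases and the Ccng1 site 195 bases before an annotated start, upstream of each gene. Cdkn1a had another window, at a later start, whose best site had 7 mismatches. The Cdkn1a site also holds the 14-base pattern CATGNNNNNNCATG, which occurred in 234 windows (0.712%), and in 1 of the 11 member windows. These matches describe the sequence only, and binding was not measured here.

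The deposited control library held 117731270 unique molecular identifiers (UMIs, tags that each mark 1 captured RNA molecule) in 20381 cells, and the Dox library 103997248 UMIs in 15649 cells. After quality limits, 20180 control and 15426 Dox cells were kept, with a median of 4495 and 4995 UMIs. The libraries shared 441 cell barcodes. Cells with at least 10 UMIs of Rpe65, the retinoid isomerase that defines the RPE, were taken as RPE, which gave 1526 control RPE and 1630 Dox-RPE cells. The summed level of 12 RPE markers was 100052 UMIs per 1000000 UMIs of the group (CPM) in control RPE and 101147 CPM in Dox-RPE, against 3350 CPM in control fibroblast-like cells. At least 1 Rpe65 UMI was found in 64.4% of all kept control cells and 78.5% of Dox cells, although RPE cells made up 7.56% and 10.6% of them. Rpe65 UMIs were thus also found in cells of other types, as they are where free RNA enters a droplet or a droplet holds several cells. Of the RPE cells, 1320 control and 1391 Dox cells lay in the cluster with RPE markers. The remaining 206 control and 239 Dox cells lay in clusters of other cells, described below. Over both libraries, 215 lay in the Schwann-like cluster, 127 in the cluster led by Hbb-bs and 70 in the larger fibroblast-like cluster.

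RPE cells were divided by Serpina3n, a secreted protease inhibitor, at 1000 CPM. Serpina3n-high cells made up 0.983% of control RPE (15 of 1526 cells, 0.551 to 1.62%) and 12.8% of Dox-RPE (208 of 1630 cells, 11.2 to 14.5%). A further 20 control and 57 Dox cells lay between 500 and 1000 CPM, and 7 control and 37 Dox cells between 1000 and 2000 CPM. Serpina3n-high Dox-RPE cells were deeper than Serpina3n-low Dox-RPE cells, with a median of 28244 against 16608 UMIs. The limit on Rpe65 is a count of UMIs, so a cell with a lower share of Rpe65 needs more UMIs to pass. Below it lay 85 control and 78 Dox cells of the cluster with RPE markers, which were left out. Their Serpina3n was at 234 and 4499 CPM, their members summed to 1148 and 859 CPM, and their median mitochondrial share was 12.8% and 10.5%. The part of this limit in the results was not tested. Rpe65 was 1954 CPM in the Serpina3n-high Dox-RPE and 5499 CPM in the Serpina3n-low Dox-RPE, against 5008 CPM in Serpina3n-low control RPE. The summed level of 12 fibroblast markers was 418 CPM in Serpina3n-high Dox-RPE, 1248 CPM in Serpina3n-low Dox-RPE and 1840 CPM in Serpina3n-low control RPE. The 14 immediate early genes, which are induced by stress and by tissue dissociation, summed to 4135, 4959 and 5733 CPM in the same order. The part of depth, of fibroblast marker RNA and of immediate early induction in the differences below was examined only by the subsets of cells given beside them.

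Seen over all RPE cells, 8 of the 10 members were higher in Dox-RPE than in control RPE, with an interval of the ratio above 0 on the log2 scale. The same held for 9.08% of the 14215 genes with at least 20 UMIs. Btg2 was lower, as were 14.7% of these genes, and the interval of Sesn1 included 0. The median log2 ratio of the 10 members was 0.70, against -0.02 for all genes. Psrc1 and Cdkn1a were the members at or above 2-fold, and 0.992% of all genes reached 2-fold.

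The members differed most in the Serpina3n-high cells. Within the Dox library, 8 of the 10 members were higher in Serpina3n-high than in Serpina3n-low RPE, where 10.8% of 13111 genes were. Of the members, 5 were higher by 2-fold or more, against 2.64% of all genes. Btg2 and Sesn1 were lower, as were 30.4% of all genes. The median log2 ratio was 0.92 for the members and -0.20 for all genes, so that genes on the whole were lower in CPM in the Serpina3n-high cells. Centred on all genes, the median of the members was 1.12. Serpina3n was used to form these groups, and none of the 10 members was. The paper lists Serpina3n and Cdkn1a together as markers of a subpopulation of Dox-RPE. The members and this comparison were chosen with earlier results of these data known, so the counts are a description only.

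**Figure D1:**
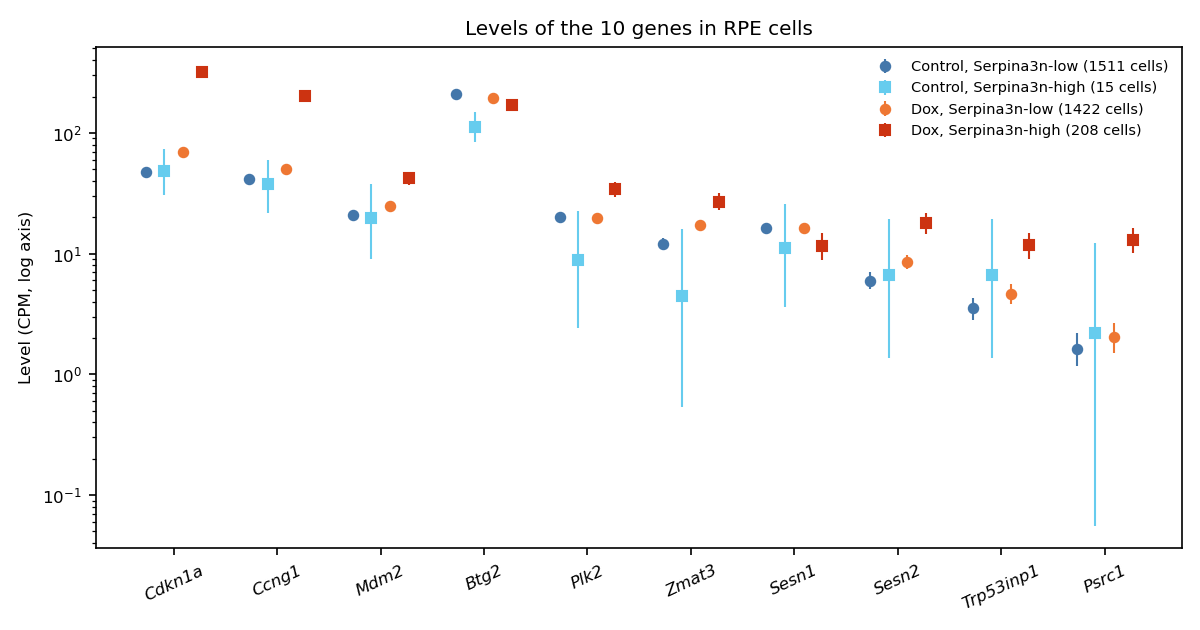
Level (CPM, log axis) of each of the 10 genes in the 4 groups of RPE cells, with 95% Poisson intervals of counting error; circles are Serpina3n-low and squares Serpina3n-high cells. Cdkn1a and Ccng1 stand apart in the 208 Serpina3n-high Dox-RPE cells, and the 15 Serpina3n-high control cells have wide intervals.

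Cdkn1a (ENSMUSG00000023067, chromosome 17 from 29090976 to 29100727 on GRCm38), the CDK inhibitor, was at 47.7 CPM (45.1 to 50.4) in Serpina3n-low control RPE, from 1233 UMIs. It was at 48.6 CPM (30.4 to 73.6) in the 15 Serpina3n-high control cells, from 22 UMIs. In Dox-RPE it was at 69.1 CPM (65.9 to 72.4) in Serpina3n-low cells and at 318 CPM (303 to 333) in Serpina3n-high cells. The 2 control groups did not differ beyond their intervals, and the Serpina3n-high Dox-RPE stood far above the other 3 groups. The ratio of Serpina3n-high to Serpina3n-low Dox-RPE was 4.598-fold (log2 ratio 2.20, 2.11 to 2.30). Between Serpina3n-high cells of Dox and control it was 6.54-fold (log2 ratio 2.71, 2.11 to 3.39), and between Serpina3n-low cells 1.45-fold (log2 ratio 0.54, 0.43 to 0.64).

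Ccng1 (chromosome 11 from 40748552 to 40755311), cyclin G1, followed the same order. Its level was 41.4 CPM (38.9 to 43.9) in Serpina3n-low control RPE and 37.5 CPM (21.9 to 60.1) in Serpina3n-high control RPE. In Dox-RPE it was 50.1 CPM (47.4 to 52.9) in Serpina3n-low and 202 CPM (190.1 to 214) in Serpina3n-high cells. The ratio within Dox-RPE was 4.02-fold (log2 ratio 2.01, 1.89 to 2.13), and that between Serpina3n-low cells of Dox and control was 1.21-fold (log2 ratio 0.28, 0.16 to 0.40).

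Mdm2 (chromosome 10 from 117688875 to 117710758), the ligase of p53, differed less. It was at 21.0 CPM (19.2 to 22.8) in Serpina3n-low control RPE, from 542 UMIs, and at 19.9 CPM (9.09 to 37.7) in Serpina3n-high control RPE, from 9 UMIs. In Dox-RPE it was at 24.6 CPM (22.7 to 26.6) in Serpina3n-low and 42.0 CPM (36.8 to 47.8) in Serpina3n-high cells. The ratio within Dox-RPE was 1.71-fold (log2 ratio 0.77, 0.55 to 0.99), below that of Cdkn1a and Ccng1, whose intervals do not overlap it.

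Psrc1 (chromosome 3 from 108383839 to 108388231), the microtubule-binding member, had few UMIs and a ratio as high as that of Cdkn1a. It was at 1.62 CPM (1.17 to 2.20) in Serpina3n-low control RPE and 2.03 CPM (1.51 to 2.66) in Serpina3n-low Dox-RPE. In Serpina3n-high Dox-RPE it was at 12.9 CPM (10.1 to 16.3), from 72 UMIs, while 1 UMI was counted in the Serpina3n-high control cells. The ratio within Dox-RPE was 6.38-fold (log2 ratio 2.67, 2.14 to 3.22), and the interval between Serpina3n-low cells of Dox and control included 0 (log2 ratio 0.32, -0.29 to 0.94).

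Trp53inp1 (chromosome 4 from 11156431 to 11174379), which promotes p53 activity, was at 3.52 CPM (2.83 to 4.32) in Serpina3n-low control RPE and at 4.64 CPM (3.85 to 5.55) in Serpina3n-low Dox-RPE. Its level in Serpina3n-high Dox-RPE was 11.7 CPM (9.01 to 14.9), a ratio within Dox-RPE of 2.52-fold (log2 ratio 1.33, 0.87 to 1.78). The sestrin Sesn2 (chromosome 4 from 132492032 to 132510501) was at 5.95 CPM (5.05 to 6.97), 8.58 CPM (7.49 to 9.79) and 17.8 CPM (14.5 to 21.7) in the same 3 groups. Sesn2 was thus higher at both steps, by 1.44-fold between Serpina3n-low cells (log2 ratio 0.53, 0.22 to 0.83) and by 2.07-fold within Dox-RPE (log2 ratio 1.05, 0.69 to 1.40).

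The other sestrin, Sesn1 (chromosome 10 from 41809935 to 41908424), did not share this order. It was at 16.4 CPM (14.8 to 18.0) in Serpina3n-low control RPE, 16.2 CPM (14.7 to 17.9) in Serpina3n-low Dox-RPE and 11.5 CPM (8.85 to 14.7) in Serpina3n-high Dox-RPE. Its log2 ratio within Dox-RPE was -0.50 (-0.90 to -0.11), and between Serpina3n-low cells -0.01 (-0.21 to 0.19). The intervals of Sesn1 and Sesn2 within Dox-RPE do not overlap. The annotation places another gene on the same strand over each sestrin, 9930024M15Rik over Sesn1 and Gm12981 over Sesn2. How reads in these overlaps were counted was not examined.

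Zmat3 (chromosome 3 from 32334792 to 32366014), the RNA-binding member, was at 12.1 CPM (10.8 to 13.5) in Serpina3n-low control RPE, 17.2 CPM (15.7 to 18.9) in Serpina3n-low Dox-RPE and 26.9 CPM (22.8 to 31.6) in Serpina3n-high Dox-RPE. The 2 ratios were alike, with a log2 ratio of 0.52 (0.30 to 0.73) between Serpina3n-low cells and of 0.64 (0.37 to 0.91) within Dox-RPE. The kinase gene Plk2 (chromosome 13 from 110395046 to 110400844) was at 19.99 CPM (18.3 to 21.8) and 19.9 CPM (18.2 to 21.7) in Serpina3n-low cells of control and Dox, and at 34.3 CPM (29.6 to 39.5) in Serpina3n-high Dox-RPE. Plk2 differed between the Serpina3n-low groups by less than the counting error (log2 ratio -0.01, -0.19 to 0.17) and higher in Serpina3n-high Dox-RPE (log2 ratio 0.79, 0.54 to 1.03).

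Btg2 (chromosome 1 from 134075170 to 134079120), the antiproliferative member, was lower in Dox than in control over all RPE cells and among Serpina3n-low cells, and higher among Serpina3n-high cells. It was at 209 CPM (204 to 215) in Serpina3n-low control RPE, 194 CPM (189 to 199.6) in Serpina3n-low Dox-RPE, 169.8 CPM (159 to 181) in Serpina3n-high Dox-RPE and 113 CPM (83.9 to 148) in Serpina3n-high control RPE. The log2 ratio was -0.11 (-0.16 to -0.05) between Serpina3n-low cells and -0.19 (-0.30 to -0.09) within Dox-RPE. Centring on all genes turned the latter to 0.01 (-0.10 to 0.11), and the direction of Btg2 also changed with the RPE cells taken, as given below.

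**Figure D2:**
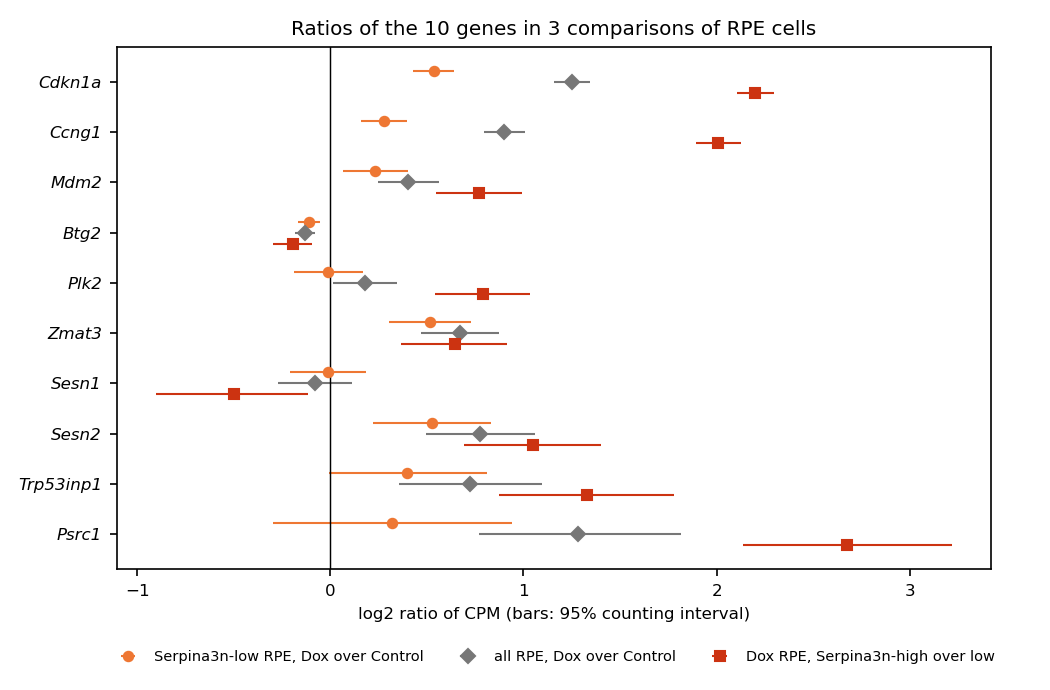
The log2 ratio of CPM of each gene (horizontal axis) in 3 comparisons of RPE cells, with 95% counting intervals; values right of 0 are higher in Dox, or in Serpina3n-high cells. Cdkn1a, Ccng1 and Psrc1 reach 2.01 or more within Dox-RPE, while Btg2 and Sesn1 lie left of 0.

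In Serpina3n-low cells, Cdkn1a, Ccng1, Mdm2, Zmat3 and Sesn2 were the 5 members whose interval lay above 0 between Dox and control, and 10.8% of 14079 genes were called the same way. None of the members was 2-fold higher there, and 0.668% of all genes were. Btg2 was lower, as were 12.0% of all genes. The median log2 ratio was 0.30 for the members and 0.01 for all genes. In Serpina3n-high cells, 7 members were above 0, against 4.85% of 9979 genes, and 7 were at least 2-fold higher, against 9.69% of all genes. No member was lower, and 7.27% of all genes were. The median of the members there was 1.69, against 0.02. That comparison rests on 15 control cells with 452790 UMIs, where 6 of the members had 5 or fewer UMIs, and its intervals are wide.

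Within control RPE, the 15 Serpina3n-high cells gave no member with an interval above 0 against the Serpina3n-low cells, where 4.89% of 13123 genes were above 0. Btg2 was lower, as were 6.36% of genes (log2 ratio -0.89, -1.32 to -0.50). The log2 ratio of Cdkn1a there was 0.03 (-0.65 to 0.63) and that of Ccng1 -0.14 (-0.93 to 0.55). The upper bounds for both lie below the ratios seen within Dox-RPE.

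The level of Serpina3n at which the members differed was examined in steps, chosen after the data had been seen. In RPE cells without a Serpina3n UMI, 1294 in control and 780 in Dox, Cdkn1a was at 42.9 CPM (control) and 41.7 CPM (Dox) (log2 ratio -0.04, -0.20 to 0.11). Ccng1 was at 41.3 and 39.8 CPM in these cells (log2 ratio -0.06, -0.21 to 0.10). Over all such cells, both genes differed by less than the counting error. Among those with the lower share of fibroblast markers, 658 in control and 388 in Dox, Cdkn1a was higher in Dox, at 21.1 against 16.9 CPM (log2 ratio 0.32, 0.02 to 0.61).

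Zmat3 was the member that differed upward in cells without Serpina3n, at 12.1 CPM (control) and 17.1 CPM (Dox) (log2 ratio 0.50, 0.24 to 0.76). Btg2 and Plk2 were lower in Dox in these cells, with log2 ratios of -0.28 (-0.35 to -0.21) and -0.35 (-0.60 to -0.11). The other 5 members had intervals that included 0. The share of all genes called was not counted for the steps of Serpina3n. Among all Serpina3n-low cells, 10.8% of genes were higher in Dox and 12.0% lower. The calls in this step are therefore not read as a trait of the members.

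In cells with Serpina3n above 0 and below 250 CPM, 168 in control and 511 in Dox, Cdkn1a was at 67.8 and 60.2 CPM (log2 ratio -0.17, -0.39 to 0.04). Among those with the lower share of fibroblast markers, the log2 ratio of Cdkn1a was 0.38 (-0.04 to 0.82). Ccng1 was already higher in Dox over all cells of this step, at 51.8 against 37.4 CPM (log2 ratio 0.47, 0.20 to 0.75), and so was Sesn2, at 9.79 against 3.57 CPM (log2 ratio 1.45, 0.62 to 2.41). Between 250 and 1000 CPM, in 131 cells, Cdkn1a in Dox-RPE was at 346 CPM (319 to 376). It was at 309 CPM (286 to 333) between 1000 and 4000 CPM in 90 cells, and at 323 CPM (305 to 343) at 4000 CPM or more in 118 cells. The full level of Cdkn1a was thus already reached in cells below the limit of 1000 CPM, and the intervals of the 3 upper steps overlap. In control RPE, the 49 cells between 250 and 1000 CPM had 77.0 CPM of Cdkn1a (60.3 to 97.0), which gives a log2 ratio of 2.17 (1.81 to 2.54) of Dox over control.

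Ccng1 in Dox-RPE increased over more steps, from 51.8 CPM below 250 CPM of Serpina3n to 123 CPM (107 to 141) between 250 and 1000 CPM and 215 CPM (196 to 235) between 1000 and 4000 CPM. At 4000 CPM or more it was 194 CPM (179 to 209), which overlaps the step before. Psrc1 was at 1.73, 8.94 and 10.8 CPM in the same steps and at 14.3 CPM (10.5 to 18.9) in the highest. Mdm2 was at 53.04 CPM (42.6 to 65.3) between 250 and 1000 CPM and at 39.9 CPM (33.5 to 47.1) in the highest step, intervals that overlap. The 131 Dox cells between 250 and 1000 CPM were shallow, with a median of 7073 UMIs against 28618.5 in the highest step. Their fibroblast markers were higher, at 1549 against 482 CPM, as were their immediate early genes, at 7721 against 4209 CPM. Among the 51 of these cells with the lower share of fibroblast markers, Cdkn1a was at 428 CPM. It was at 52.9 CPM in 17 control cells (log2 ratio 3.02, 2.41 to 3.69). Few Serpina3n UMIs bring a shallow cell to 250 CPM, so this step also depends on depth. The part of depth and of immediate early induction in the Cdkn1a level of this step was not tested.

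**Figure D3:**
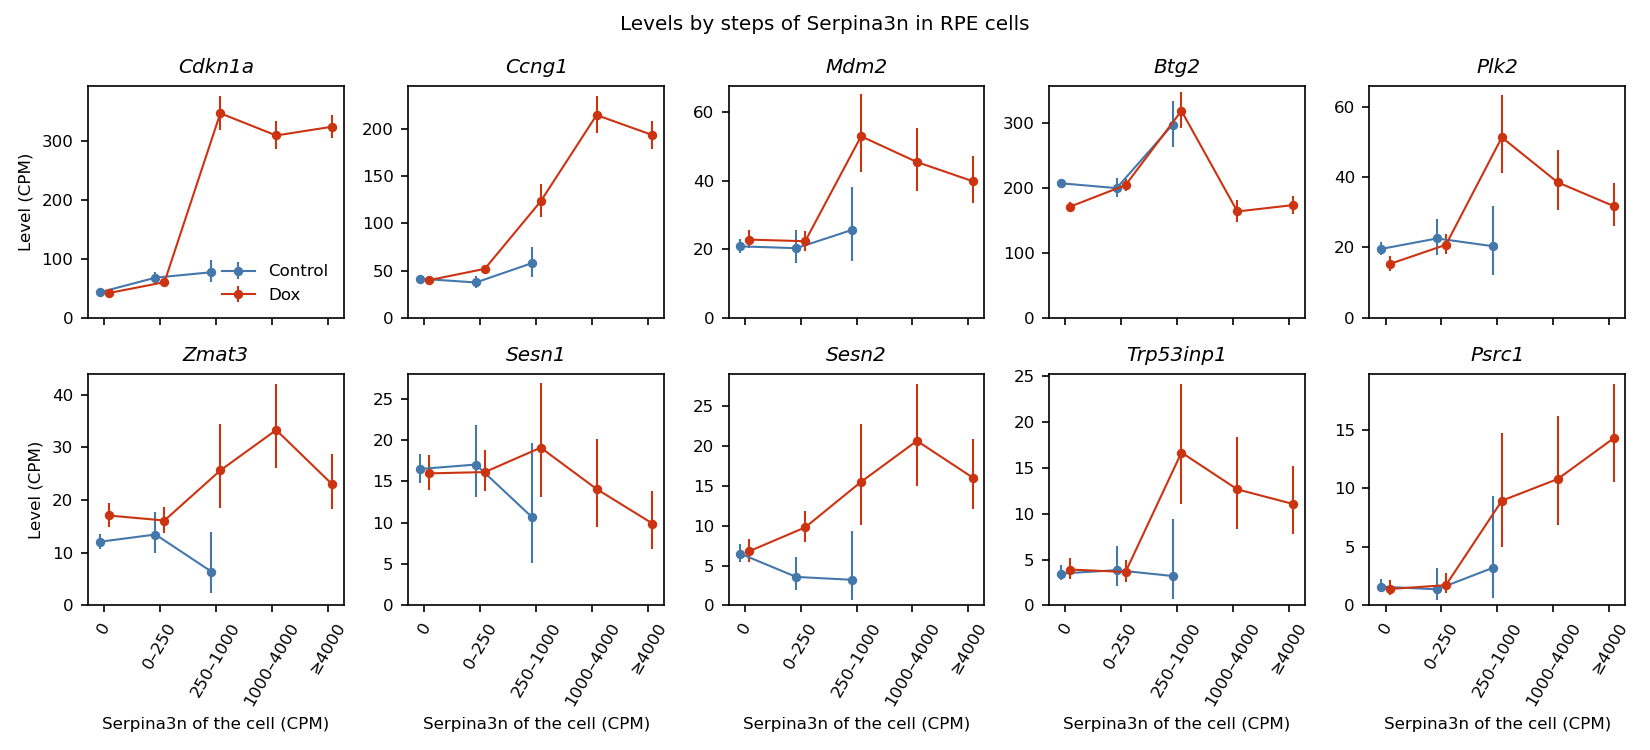
Level (CPM) of each gene in RPE cells of control (blue) and Dox (red) by steps of Serpina3n of the cell (CPM), with 95% Poisson intervals; steps with under 20 cells are not drawn. Over all cells of a step, Cdkn1a is at 42.9 and 41.7 CPM without Serpina3n and at 77.0 and 346 CPM between 250 and 1000 CPM; among cells with fewer fibroblast UMIs, not drawn, it is at 16.9 and 21.1 CPM without Serpina3n.

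Fibroblast-like cells carried far more Btg2, in CPM, than RPE cells, and far more Cdkn1a than Serpina3n-low RPE cells. RNA of the fibroblast markers was found in RPE cells. The paper lists some of these markers, among them Dcn, Lum and Serping1, for an RPE subpopulation. Whether this RNA came from fibroblasts was not tested. In control, the fibroblast markers in Serpina3n-low RPE stood at 7.70% of their level in fibroblast-like cells, Btg2 at 9.44% and Cdkn1a at 13.1%. In Serpina3n-low Dox-RPE the 3 values were 5.58%, 9.04% and 21.2%, and in Serpina3n-high Dox-RPE they were 1.87%, 7.91% and 97.4%. Ccng1, by contrast, stood at 119.7% of the fibroblast-like level in Serpina3n-low control RPE, and at 486% in Serpina3n-high Dox-RPE.

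When the RPE cells of each group were ordered by their share of fibroblast marker UMIs and the lower part taken, which held 756 control and 711 Dox Serpina3n-low cells, the markers summed to 89.98 CPM (control) and 57.0 CPM (Dox). In these cells Cdkn1a was at 19.5 CPM (17.3 to 21.8) for control and 54.8 CPM (51.3 to 58.5) for Dox, a log2 ratio of 1.49 in place of 0.54. Serpina3n-high Dox-RPE cells chosen in the same way had 299 CPM (280.3 to 319), close to the 318 CPM of all such cells. Of the 887 Cdkn1a UMIs in these Serpina3n-low Dox-RPE cells, 465 came from the 51 cells between 250 and 1000 CPM of Serpina3n. In the cells below 250 CPM the ratios were the 0.32 and 0.38 given above. In the upper part, with 4354 and 3289 CPM of fibroblast markers, Cdkn1a was at 88.2 CPM (82.6 to 94.0) for control and 93.6 CPM (87.6 to 100.0) for Dox.

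Btg2 was lower where the markers were lower, in both libraries. In the cells with fewer fibroblast UMIs, Btg2 was at 58.1 CPM (control) and 56.1 CPM (Dox) among Serpina3n-low cells, against 427 and 430.5 CPM in the cells with more. Its log2 ratio within Dox-RPE then changed from -0.19 to 1.31 (1.14 to 1.48), so Btg2 was higher in Serpina3n-high Dox-RPE once such cells were taken. Ccng1 hardly moved, at 42.6 CPM (control) and 50.8 CPM (Dox) in the cells with fewer fibroblast UMIs. The cells of highest doublet score made up 16.1% of all kept control and 12.3% of kept Dox cells, as the cut was scaled to library size. Without them, there were 30.02 CPM (27.7 to 32.5) of Cdkn1a in Serpina3n-low control RPE and 58.7 CPM (55.6 to 61.9) in Serpina3n-low Dox-RPE. Serpina3n-high Dox-RPE then had 321 CPM. The part of the unequal cut in these values was not tested.

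Among the Serpina3n-low cells with the lower share of immediate early UMIs, Cdkn1a was at 15.5 CPM (13.4 to 17.7) for control and 29.1 CPM (26.5 to 32.0) for Dox. Cdkn1a was the 1 member with an interval above 0 in that comparison (log2 ratio 0.91, 0.67 to 1.16), beside 5.25% of 12403 genes. Ccng1 was at 42.7 and 44.2 CPM there. In Serpina3n-high Dox-RPE, the cells with the lower share kept 256 CPM of Cdkn1a (238 to 275).

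Single cells differed widely in Cdkn1a. In Serpina3n-high Dox-RPE the median cell had 238 CPM of Cdkn1a, the 10th percentile was 32.5 CPM and the 90th percentile 705 CPM. In Serpina3n-low cells of both libraries the median was 0, and the 90th percentile was 176 CPM in control and 229 CPM in Dox. The 10% of cells with the most Cdkn1a UMIs held 74.7% of them in Serpina3n-low Dox-RPE, 69.3% in Serpina3n-low control RPE and 31.7% in Serpina3n-high Dox-RPE. Cdkn1a UMIs were thus found in a minority of the Serpina3n-low cells and in most of the Serpina3n-high Dox-RPE cells. The share held by the top 10% of cells also depends on the number of UMIs per cell. For Psrc1, with few UMIs, it was 100% in Serpina3n-low and 54.2% in Serpina3n-high Dox-RPE.

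To compare cells at equal depth, each RPE cell was thinned to 5000 UMIs, which left out 185 control and 189 Dox Serpina3n-low cells, and 1 control and 13 Dox Serpina3n-high cells. A Cdkn1a UMI was then found in 17.7% (15.7 to 19.9) of Serpina3n-low control, 17.4% (15.4 to 19.7) of Serpina3n-low Dox and 70.3% (63.3 to 76.6) of Serpina3n-high Dox cells. Without thinning the shares were 30.4%, 31.9% and 90.9%. Ccng1 was found in 17.5% (15.5 to 19.6), 18.7% (16.6 to 21.0) and 52.3% (45.1 to 59.5) of the thinned cells, and Psrc1 in 0.603%, 1.38% and 6.67%. No cell type known to lack these genes was at hand as a background for free RNA, and fibroblast-like control cells had a Cdkn1a UMI in 57.4% of cells at a median of 4774 UMIs.

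The thinned Serpina3n-low cells had a UMI of a median of 1 of the 10 members in both libraries, and the Serpina3n-high Dox-RPE cells of 2. No member was found in 33.6% of Serpina3n-low control, 36.1% of Serpina3n-low Dox and 5.13% of Serpina3n-high Dox cells. At least 4 members were found in 3.32%, 4.87% and 22.1% of them. The Serpina3n-high Dox-RPE cells thus carried several members at once more often than either Serpina3n-low group at the same depth.

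**Figure D4:**
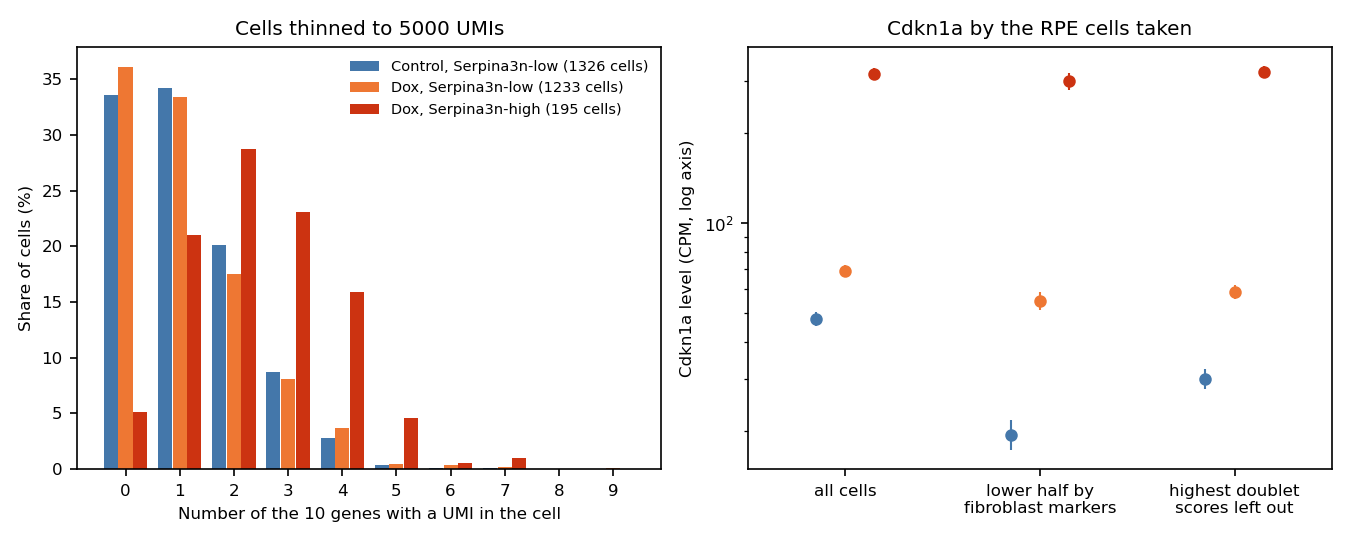
Left, share of RPE cells (%) by the number of the 10 genes with a UMI after thinning each cell to 5000 UMIs. Right, Cdkn1a (CPM, log axis) with 95% Poisson intervals in all cells, in the cells with the lower share of fibroblast marker UMIs and without the highest doublet scores; control Serpina3n-low cells differ between 47.7 and 19.5 CPM and Serpina3n-high Dox-RPE cells stay between 299 and 321 CPM.

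Thinned cells were then sorted by their Cdkn1a UMIs, a comparison added after the data had been seen. Among Serpina3n-low Dox-RPE cells, Ccng1 was at 40.1 CPM (34.8 to 46.0) in 1018 cells without a Cdkn1a UMI and at 128 CPM (98.0 to 164) in 97 cells with 2 or more. Psrc1 was at 1.96 CPM, from 10 UMIs, and 14.4 CPM (5.80 to 29.7), from 7 UMIs, in the same cells. In Serpina3n-low control RPE, Ccng1 was at 38.5 CPM in 1091 cells without Cdkn1a. It was at 57.1 CPM in 84 cells with 2 or more UMIs. Psrc1 was there at 1.10 CPM, from 6 UMIs, and 7.14 CPM (1.47 to 20.9), from 3 UMIs. Btg2 was higher with 2 or more Cdkn1a UMIs in both libraries, at 973 against 181 CPM (Dox) and 1105 against 169 CPM (control). Plk2, Mdm2 and Zmat3 were also higher in both libraries. In control, the intervals overlapped for Ccng1 (33.5 to 44.1 and 36.6 to 85.0 CPM), Psrc1, Mdm2 and Zmat3. Those of Btg2 and Plk2 did not overlap. Sesn2 was lower in control, from 1 UMI. Higher levels were thus not limited to Ccng1 and Psrc1 or, for Btg2 and Plk2, to Dox. The cells with 2 or more Cdkn1a UMIs also had more fibroblast markers, 4973 against 1318 CPM in Dox and 7205 against 1609 CPM in control, and more immediate early genes. Their Serpina3n was also higher, at 189.7 against 46.2 CPM in Dox and 47.6 against 21.8 CPM in control. The part of these in the result was not tested. In Serpina3n-high Dox-RPE, Ccng1 was at 155 CPM (113 to 208) in 58 cells without a Cdkn1a UMI. In 81 cells with 2 or more it was at 170.4 CPM (133 to 216), and these intervals overlap. Btg2 was at 100 CPM (67.0 to 144) and 264 CPM (217 to 319) in the same cells, intervals that do not overlap. Intervals of the remaining members overlapped.

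The other cells fell into 9 clusters besides the RPE-like one, 2 of which stayed unnamed, one led by Hbb-bs and Hhatl and one by the chemokine genes Cxcl10 and Cxcl9. The cluster led by Hbb-bs also had Pmel among its leading genes. Its melanocyte markers summed to 40722 CPM (control) and 28402 CPM (Dox), and its red cell markers to 651 and 942 CPM. No group was named for melanocytes, so they are not ranked apart below. The macrophage-like cluster was led by Cd209a and antigen presentation genes, and the NK or T-like cluster by 2 immunoglobulin genes followed by Gzmc, Gzma, Gzmb and Nkg7, genes of cytotoxic cells. The Schwann-like cluster was named from 3 Schwann markers among its leading genes. Control Schwann-like cells had 1715 CPM of summed Schwann markers, against 13772 CPM of melanocyte, 8684 CPM of RPE and 8455 CPM of fibroblast markers. The name therefore does not mark a pure cell type. In fibroblast-like cells, 11215 in control and 8436 in Dox, Cdkn1a was at 365 CPM (360.4 to 370.1) for control and 326 CPM (321 to 331) for Dox, a log2 ratio of -0.16 (-0.19 to -0.13). Ccng1, Psrc1 and Sesn1 were the 3 members above 0 there, against 14.1% of all genes. The level of Cdkn1a in Serpina3n-high Dox-RPE, 318 CPM, overlapped that of fibroblast-like Dox cells in its interval. The summed immediate early genes of these 2 groups were far apart, at 4135 and 56691 CPM.

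Ccng1 was higher in Dox in fibroblast-like cells, from 34.6 to 41.5 CPM (log2 ratio 0.26, 0.17 to 0.35), in Schwann-like cells, from 34.9 to 57.0 CPM (log2 ratio 0.71, 0.27 to 1.14), and in macrophage-like cells, from 33.3 to 44.2 CPM (log2 ratio 0.41, 0.07 to 0.74). It was also higher in endothelial-like cells, from 23.8 to 40.03 CPM (log2 ratio 0.75, 0.02 to 1.46). In smooth muscle-like cells its interval included 0 (log2 ratio 0.18, -0.18 to 0.54), as in NK or T-like cells (log2 ratio -0.14, -0.60 to 0.31). RPE RNA was found in every type, and the summed RPE markers were higher in Dox in each of them. They were at 5195 against 3350 CPM in fibroblast-like cells and at 15949 against 8684 CPM in Schwann-like cells. The part of RPE RNA in these values was not tested.

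Schwann-like cells had 1 member above 0, Ccng1, where 10.5% of all genes were, and macrophage-like cells 2, Ccng1 and Cdkn1a, where 6.31% were. Endothelial-like cells had 1 of 8 members with at least 20 UMIs, where 4.34% of genes were, and smooth muscle-like and NK or T-like cells had 0 of 9 each, against 7.09% and 5.19% of genes. Plk2 was lower in Dox in Schwann-like cells, at 131 against 210.4 CPM (log2 ratio -0.69, -0.93 to -0.45).

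By level in control, among the named groups, Cdkn1a was highest in smooth muscle-like cells at 878 CPM (852 to 905) and endothelial-like cells at 841 CPM (798 to 886), whose intervals overlap. Macrophage-like cells followed at 585 CPM, fibroblast-like at 365 CPM, Schwann-like at 291 CPM and NK or T-like cells at 193 CPM (174 to 213). RPE cells were lowest, at 47.7 CPM. Btg2 ranged from 2732 CPM in smooth muscle-like to 1057 CPM in macrophage-like cells and 208 CPM in all control RPE cells. Plk2 ranged from 485 CPM in endothelial-like cells to 19.8 CPM in all control RPE cells. The immediate early genes also differed between these groups in control. They summed to 54076 CPM in fibroblast-like, 48501 CPM in endothelial-like and 39547 CPM in smooth muscle-like cells. In NK or T-like cells they summed to 22527 CPM, and in all RPE cells to 5705 CPM. The part of immediate early induction in these levels was not tested.

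The members with low levels had other orders among the named groups. Ccng1 in control ranged only from 23.8 CPM in endothelial-like to 56.1 CPM in NK or T-like cells, and its level of 202 CPM in Serpina3n-high Dox-RPE lay above all of these. Trp53inp1 had its highest level in the NK or T-like group, with 40.5 CPM (32.3 to 50.2) for control and 36.8 CPM for Dox. Psrc1 was at 13.1 CPM (9.18 to 18.1) in control Schwann-like cells, which overlapped the 12.9 CPM of Serpina3n-high Dox-RPE. Mdm2 was highest in macrophage-like cells at 60.1 CPM (53.6 to 67.2), overlapping endothelial-like cells at 53.6 CPM (43.1 to 65.9).

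**Figure D5:**
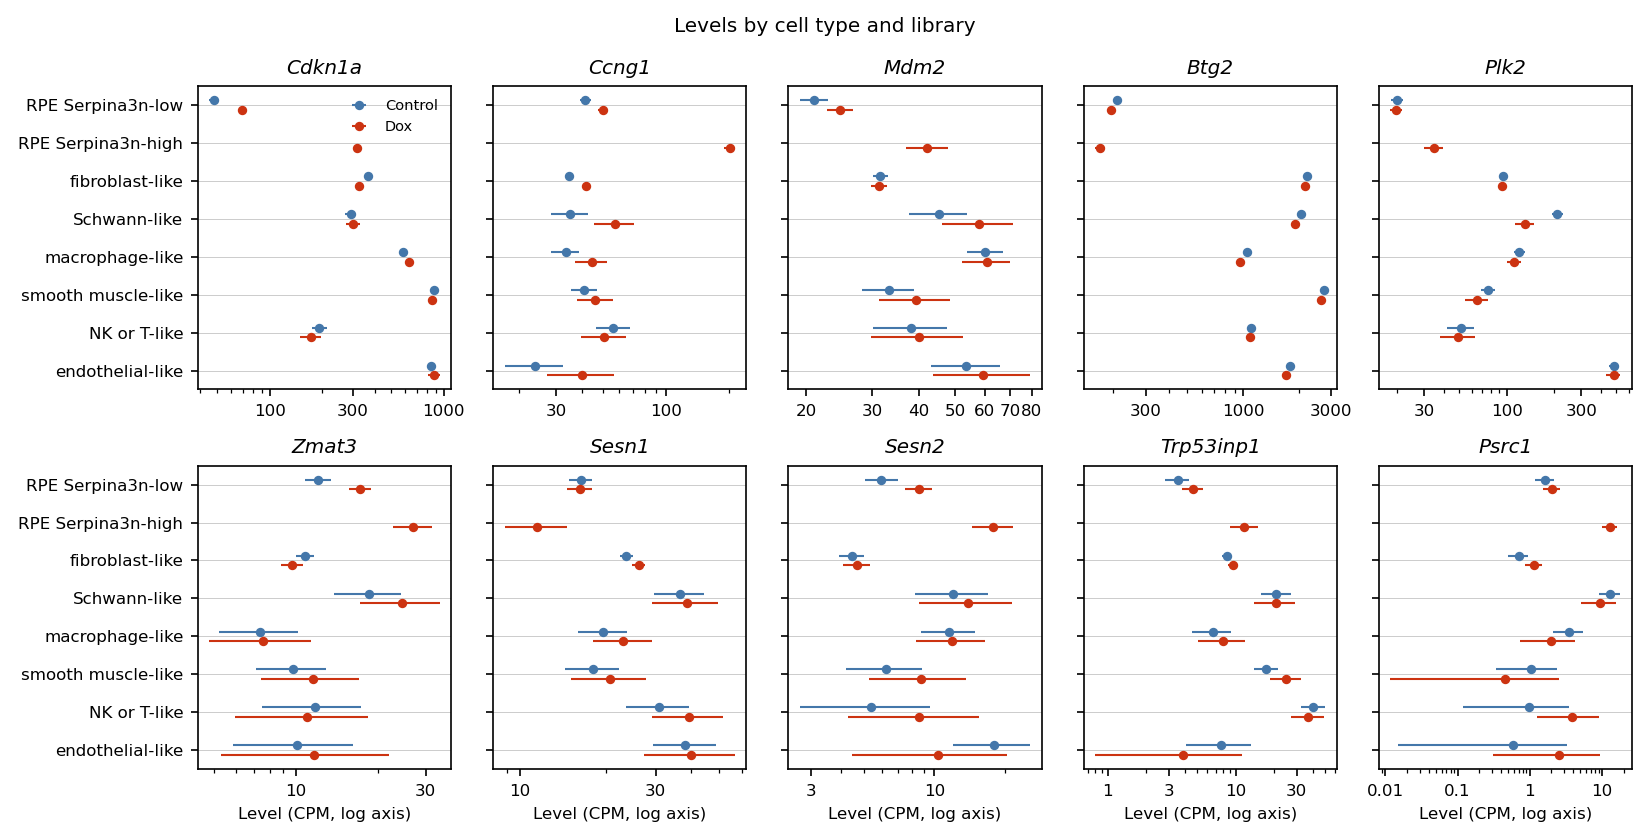
Level (CPM, log axis) of each gene in 8 groups of cells of control (blue) and Dox (red), with 95% Poisson intervals; the 15 Serpina3n-high control cells and clusters without a name are not drawn. Cdkn1a in Serpina3n-high Dox-RPE lies at the level of fibroblast-like cells, at 318 and 326 CPM, and Ccng1 there lies above every other group.

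Over 19 groups of at least 50 cells (cell types, unnamed clusters and RPE groups of each library), the genes whose log2 levels were most correlated with Cdkn1a were Anxa3 (Pearson r = 0.88), Vim (0.88), Ggta1 (0.87), Map7d1 (0.85) and Cpne2 (0.85), of 9246 genes. Among the members, Plk2 (0.73), Btg2 (0.69) and Mdm2 (0.60) came nearest. Psrc1 (-0.23), Ccng1 (-0.29) and Zmat3 (-0.42) were opposite in sign. The groups share libraries and free RNA, and these values are a description of levels across cell types.

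Other genes of the pathway were taken from lists, and the genes named here are those with the largest and smallest ratios between Serpina3n-high cells of Dox and control. Of 13 tested genes that p53 induces toward cell death, 10 were higher in Serpina3n-high than in Serpina3n-low Dox-RPE and 1 was lower. Of all genes, 10.8% were higher and 30.4% lower. The median log2 ratio of the 13 genes was 1.13, against -0.20 for all genes. Phlda3, an inhibitor of Akt, was at 38.7 CPM in Serpina3n-low and 179 CPM in Serpina3n-high Dox-RPE (log2 ratio 2.21, 2.09 to 2.34). Aen, a nuclease of apoptosis, was at 19.3 and 64.9 CPM (log2 ratio 1.74, 1.55 to 1.94), and the receptor gene Eda2r at 0.663 and 6.29 CPM (log2 ratio 3.25, 2.37 to 4.17). Bbc3 (Puma), which activates Bax, was at 1.56 and 3.41 CPM (log2 ratio 1.13, 0.26 to 1.95). Against the 15 Serpina3n-high control cells, 4 of 12 were higher and 0 lower, beside 4.85% and 7.27% of all genes, and Bbc3 was at 3.41 against 6.63 CPM (log2 ratio -0.96, -2.72 to 1.44). Between Serpina3n-low cells of Dox and control, 5 of 14 were higher and 1 lower, beside 10.8% and 12.0% of all genes, with a median of 0.07, and Phlda3 was at 38.7 against 25.8 CPM (log2 ratio 0.59, 0.44 to 0.73).

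Of the 22 tested repair and metabolic targets, 6 were higher and 6 lower, with a median of 0.06, beside 10.8% of all genes that were higher and 30.4% that were lower. Gdf15, a secreted stress hormone, was at 23.4 and 135 CPM (log2 ratio 2.52, 2.37 to 2.68), while Gadd45a, a DNA damage response gene, was at 9.64 and 4.31 CPM (log2 ratio -1.16, -1.83 to -0.55). Tigar, which limits glycolysis, was at 3.67 and 5.39 CPM, and the ferredoxin reductase gene Fdxr at 5.62 and 5.39 CPM, with intervals that included 0.

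Of the 14 regulators of p53, 4 were higher and 8 lower, with a median of -0.48, beside the 30.4% of all genes that were lower and their median of -0.20. Mdm4, the partner of Mdm2 in holding p53 back, was at 25.3 and 28.4 CPM (log2 ratio 0.17, -0.10 to 0.42). Usp10, which removes ubiquitin from p53, was at 36.4 and 25.5 CPM (log2 ratio -0.51, -0.78 to -0.26), the ligase gene Cop1 at 17.9 and 13.1 CPM (log2 ratio -0.45, -0.83 to -0.09), and the acetyltransferase gene Kat5 at 15.0 and 9.88 CPM (log2 ratio -0.60, -1.04 to -0.19).

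Of 10 tested cyclins and CDKs, 0 were higher and 4 lower in Serpina3n-high Dox-RPE, with a median of -0.28. The share of lower genes is near the 30.4% of all genes, and 10.8% of all genes were higher. Ccnd1 (cyclin D1) was at 294 and 216 CPM (log2 ratio -0.45, -0.54 to -0.36), and Cdk4, Cdk2 and Rb1 had intervals that included 0. In the comparison of Serpina3n-high cells of Dox with the 15 control cells, Ccnd1 was higher, at 216 against 81.7 CPM (log2 ratio 1.40, 0.93 to 1.91), so its direction depended on the group it was set against. Of the 15 proliferation genes, 5 had at least 20 UMIs within Dox-RPE. Of these, 0 were higher and 1 was lower, beside 10.8% and 30.4% of all genes. The proliferation genes Mcm2 and Tyms were at 3.78 and 6.63 CPM in Serpina3n-low Dox-RPE and at 3.23 and 4.85 CPM in Serpina3n-high Dox-RPE, with intervals of the ratio that included 0.

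Among the CDK inhibitors tested within Dox-RPE, Cdkn1a was the only one that was higher. Of 5 other inhibitors tested, 0 were higher and 1 was lower, beside 10.8% and 30.4% of all genes. The same shares over all genes hold for the gene families below. Cdkn1b (p27) was at 98.8 and 103 CPM (log2 ratio 0.06, -0.07 to 0.20), Cdkn2d (p19) at 20.2 and 21.4 CPM (log2 ratio 0.08, -0.22 to 0.37), and Cdkn1c (p57) at 46.6 and 25.9 CPM (log2 ratio -0.85, -1.11 to -0.60). In the family of Btg2, Tob1 was higher, at 106 and 133 CPM (log2 ratio 0.33, 0.21 to 0.45), and Btg1, Btg3 and Tob2 were lower, with log2 ratios of -1.10, -0.47 and -0.66. In the family of Plk2, 2 genes were tested and none differed, Plk3 being at 9.87 and 8.26 CPM (log2 ratio -0.26, -0.74 to 0.20).

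Of the 14 immediate early genes, 2 were higher and 9 lower in Serpina3n-high Dox-RPE, with a median of -0.24, beside 10.8% and 30.4% of all genes and their median of -0.20. Klf6 was at 53.1 and 73.8 CPM (log2 ratio 0.48, 0.31 to 0.64), Atf3 at 113 and 90.2 CPM (log2 ratio -0.33, -0.47 to -0.19), Fosb at 93.0 and 82.8 CPM and Zfp36 at 466 and 235 CPM (log2 ratio -0.99, -1.07 to -0.90). Plk2 and Btg2 are also induced as immediate early genes in many cells, and Plk2 was higher here.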

How the data were processed

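Single-cell RNA-seq used a droplet kit that reads the 5′ end of transcripts, 1 library per group. Alignment to mm10 and UMI counting were done by the authors with Cell Ranger, version 4.0.0 per the file headers. The deposited counts are whole UMIs per gene and cell, with no normalization. Cells were kept with over 500 UMIs, over 200 and under 6000 genes, a complexity (log10 genes over log10 UMIs) over 0.8 and a mitochondrial share under 0.2. Libraries were integrated with Seurat 5.3.0 and sctransform 0.4.2 on 2995 genes without the members, with 40 components at resolution 0.1, and clusters were named by markers. Cells with 10 or more Rpe65 UMIs were RPE. Doublets were removed only by the limit on genes. Scrublet (scanpy 1.11.5) called 9.62% of control cells and 0 of the Dox cells, so that its calls were not used, and its highest scores served as an alternative.

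UMIs were summed per group and scaled to 1000000 UMIs of the group (CPM), with exact 95% intervals (scipy 1.17.1). Ratios were compared where a gene had at least 20 UMIs over both groups. These intervals cover counting error only. Recovery of known ratios was tested on simulated Poisson counts, which hold no spread between cells. That test therefore cannot show how the intervals hold for real cells, whose counts differ widely. With 1 library per group no p-value was computed. Named were the 10 members, from each list the 3 highest and the 1 lowest ratio in Serpina3n-high RPE, and the 5 genes most correlated with Cdkn1a. The members and lists were chosen with earlier results of these data known. The comparison of Serpina3n-high with Serpina3n-low cells, the steps of Serpina3n and the sorting by Cdkn1a were chosen after seeing the data, and 14 other settings were tried.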

Additional observations from a re-analysis of the deposited data

Results flagged for a closer look

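For 3 members, the interval of the log2 ratio of Dox over control was wholly positive in some groups of cells and wholly negative in others. How many of all genes did the same was not counted, so this is not read as a trait of the members. Other members had separate intervals without such a change of sign. An example was Ccng1, with a log2 ratio of 2.43 (1.74 to 3.21) in Serpina3n-high RPE, from 17 control UMIs. In Serpina3n-low RPE the log2 ratio of Ccng1 was 0.28 (0.16 to 0.40). The intervals cover counting error only, and with 1 library per group these differences between groups of cells were not tested.

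Cdkn1a had a log2 ratio of 0.54 in Serpina3n-low RPE and 2.71 in Serpina3n-high RPE, the latter resting on 15 control cells. In macrophage-like cells its ratio was 0.11 and in fibroblast-like cells -0.16. Btg2 had a log2 ratio of 0.59 in Serpina3n-high RPE and was lower in Dox in 5 other groups, at -0.11 in Serpina3n-low RPE, -0.047 in fibroblast-like, -0.10 in Schwann-like, -0.13 in macrophage-like and -0.047 in smooth muscle-like cells. Plk2 had a log2 ratio of 1.96 in Serpina3n-high RPE, from 4 control UMIs, and of -0.69 in Schwann-like cells.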

How the results depend on the processing

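Across 14 alternative settings, most values of the members stayed within their main intervals. They numbered 119 of 140 in Serpina3n-low RPE and 110 of 116 in Serpina3n-high RPE. Within Dox-RPE they numbered 108 of 140, and over all RPE 115 of 140. A wide interval holds more values, and those in Serpina3n-high RPE were the widest, so these counts do not rank the comparisons by stability. The 116 values leave out Cdkn1a, given below, and values without a ratio. In the same order, 3, 2, 6 and 6 values changed sign among those whose interval had excluded 0. Values whose interval had included 0 could also change sign, such as Sesn1 in Serpina3n-high RPE, which ranged from -0.99 to 0.43, and Psrc1 and Plk2 in Serpina3n-low RPE, which ranged from -0.08 to 1.69 and from -0.27 to 0.34. Over all RPE, Btg2 changed to 0.077 with at least 5 Rpe65 UMIs per cell, 0.062 without the highest doublet scores, 0.054 as the mean of the cells' own CPM, 0.11 in cells thinned to 5000 UMIs, 0.25 in cells with fewer fibroblast UMIs and 0.18 in cells with fewer immediate early UMIs. In Serpina3n-low RPE it changed to 0.20 with at least 5 Rpe65 UMIs, 0.12 as the mean of cells and 0.17 after thinning. Within Dox-RPE it changed to 0.32 with at least 20 Rpe65 UMIs, 0.43 in the RPE-like cluster, 0.46 without the highest doublet scores, 0.0052 centred on all genes, 1.31 in cells with fewer fibroblast UMIs and 0.94 in cells with fewer immediate early UMIs. In Serpina3n-high RPE, Btg2 was at -0.41 with the split at 500 CPM, and Psrc1 at -0.16 without limits on cells.

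The ratio of Cdkn1a in Serpina3n-high RPE was 1.94 with at least 5 Rpe65 UMIs. The members above 0 in Serpina3n-high RPE numbered 4 with the split at 2000 CPM, 2 after thinning and 4 in cells with fewer immediate early UMIs. The shares of all genes above 0 there were 3.80%, 2.78% and 4.51%. In cells with fewer immediate early UMIs, 1 member was above 0 in Serpina3n-low RPE, beside 5.25% of all genes. The median there was 0.076 for the members and -0.02 for all genes. In the same cells the median of the members was 0.45 over all RPE and 1.33 within Dox-RPE, against -0.03 and -0.14 for all genes. Within Dox-RPE it was 1.32 in cells with fewer fibroblast UMIs, against -0.12 for all genes. The cause of these changes was not tested. Thinning gave no median in Serpina3n-high RPE, since members had no UMI in the control cells, and the mean of the cells' own CPM gave no intervals. No paired analysis was possible because each group was 1 library. The 15 Serpina3n-high control cells limit every comparison with them.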
